A study of Mus musculus with 28 samples.

Results

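Fragments of the transfer RNAs (tRNAs) for proline, arginine, glutamine and threonine were followed in mouse blood, in extracellular vesicles (EVs) and in the plasma from which EVs had been removed. Members were the rows of the deposited table whose names start with tRNA-Pro, tRNA-Arg, tRNA-Gln or tRNA-Thr. These were 73 of 408 tRNA rows and 73 of 80668 rows in all: 16 rows of tRNA-Pro, 24 of tRNA-Arg, 16 of tRNA-Gln and 17 of tRNA-Thr. Summed over gene copies, they gave 13 of 51 anticodons and 4 of 23 isotypes. An isotype is all tRNAs named for 1 amino acid, with initiator methionine (iMet) and suppressor (Sup) tRNAs counted apart. The blood came from 14 wild-type female C57BL/6N mice, with 3 mice aged 2 months, 4 aged 6 months, 3 aged 8 months, 2 aged 12 months and 2 aged 18 months. No treatment was given. Per the labels the blood of each animal was kept apart, except that 2 plasma labels at 2 months, described below, leave this open. From each mouse, ultracentrifugation gave an EV-enriched pellet, called EV here, and EV-depleted fluid, called plasma here, and each was sequenced as 1 small RNA library, 28 in all. The pellet is a sediment of plasma, so vesicles and other material that sediments with them cannot be told apart in it. The plasma labels of replicates 2 and 3 at 2 months carry a shared code that joins the codes of both EV libraries, so only the replicate number ties them to an EV library, and the code alone does not show that each came from 1 mouse.

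A tRNA carries an amino acid to the ribosome, where its anticodon reads the codon of the messenger RNA. Nucleases cut mature tRNAs, mostly in the anticodon loop or the arms, and the fragments that result circulate in blood bound to protein or inside vesicles. Most tRNAs exist as several gene copies of the same or nearly the same sequence, so a short read often matches many of them. In bulk blood samples such as these, a lower level cannot be separated into fewer releasing cells and less RNA released per cell.

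RefSeq lists 73 tRNA genes with the 13 anticodons in GRCm38.p6, equal in number to the rows for each anticodon. Of these genes, 23 lie on chromosome 13 and 16 on chromosome 11, and they are 72 to 87 bases long with a median of 73, so counts per row were compared without a length correction. To show how alike these isotypes are near the 5′ end, 4 genes of different anticodons are printed, which could be read here from RefSeq and GENCODE sequence windows, from 5′ to 3′ on their own strand, with the anticodon in capitals. The first is on chr11:67291139-67291210 (plus strand), inside an exon of a retained-intron transcript of Myh8, a muscle myosin gene. The second is on chr7:35234770-35234843 (minus strand) and overlaps no gene of GENCODE, the third on chr7:79466419-79466491 (plus strand) in an exon of Gm10616, and of the fourth, on chr14:54517696-54517720 (plus strand) near the start of Prmt5, only the first 25 bases were at hand.
n-TPtgg2 (tRNA-Pro-TGG): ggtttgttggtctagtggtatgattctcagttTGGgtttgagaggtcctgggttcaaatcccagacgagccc
n-TTagt9 (tRNA-Thr-AGT): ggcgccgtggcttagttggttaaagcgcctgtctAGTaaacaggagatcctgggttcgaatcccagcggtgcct
n-TRtcg5 (tRNA-Arg-TCG): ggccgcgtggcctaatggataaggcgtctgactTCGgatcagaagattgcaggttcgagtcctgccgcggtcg
n-TRacg6 (tRNA-Arg-ACG): gggccagtggcgcaatggataacgc
The 2 arginine genes were identical at 19 of the first 25 bases although their anticodons differ. Over the first 33 bases, the proline gene matched the threonine gene at 15 positions and the arginine gene at 15. The arginine and threonine genes matched at 16. All these counts compare base by base without gaps. The anticodon starts at base 33 in the proline gene, 34 in the arginine gene (n-TRtcg5) and 35 in the threonine gene. The counts can therefore understate how alike the genes are, and no alignment with gaps was made. Which row of the table stands for which gene is not stated. The tRNA-Pro-TGG rows differed strongly in count, so the proline gene shown need not be an abundant copy.

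Libraries held between 4764338 and 52753818 counts in EVs and between 928651 and 23905651 in plasma, and 1 library, plasma replicate 1 at 6 months, was under 2000000. All 73 rows had counts in every library. tRNA rows took a median of 32.1% of counts in EVs (11.3 to 51.4%) and 61.6% in plasma (43.8 to 78.8%). RPM, the deposited scale, divides each count by 1 number per library. Neither what that number counts nor how reads matching several rows were treated is stated in the sources used. The sum of tRNA counts reached up to 2.29 times that number. Each comparison is therefore given both for RPM or normalized counts and as a share of the tRNA counts of the library. MicroRNAs that mark red cells, liver, platelets and skeletal muscle were present in both fractions. Each of the 14 markers was above 0 in at least 1 library of each fraction. The summed level of the 5 red cell markers was 512 to 4268 RPM in EVs and 687 to 3170 RPM in plasma. For the 3 liver markers it was 19.2 to 243 RPM in EVs and 14.6 to 177 RPM in plasma, for the 3 platelet markers 127 to 1049 RPM and 111 to 733 RPM, and for the 3 skeletal muscle markers 0.489 to 8.08 RPM and 0.757 to 8.01 RPM. Their part in the results below was not tested.

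Summed over its rows, tRNA-Pro was the most abundant isotype in both fractions. It made up 26.7% ± 4.15 (SD, n = 14) of tRNA counts in EVs and 30.0% ± 5.52 in plasma. tRNA-Gln held 6.15% ± 1.77 in EVs and 6.97% ± 2.06 in plasma and ranked 6 of 23 in both. tRNA-Arg, with 1.70% ± 0.452 in EVs and 2.27% ± 0.622 in plasma, ranked 12 and 8. tRNA-Thr, with 1.75% ± 0.338 and 1.83% ± 0.471, ranked 11 and 10, and neither in EVs nor in plasma did tRNA-Arg and tRNA-Thr differ by more than their SD. All 4 isotypes together took 36.3% ± 4.10 of tRNA counts in EVs and 41.0% ± 4.24 in plasma. As a share of all counts they took 11.8% ± 4.75 and 25.5% ± 6.12. When rows with identical counts in all libraries were counted once, tRNA-Pro fell to 22.3% in EVs and 25.1% in plasma and stayed first, and the other 3 isotypes took larger shares (tRNA-Gln 9.42% and 10.5%, tRNA-Thr 4.24% and 4.40%, tRNA-Arg 3.55% and 4.40%). Near-equal proline rows of different anticodons were still counted apart there, so this count cannot settle the rank of tRNA-Pro. By its row with the most counts alone, tRNA-Pro had a median of 9621 RPM in EVs and 24808 RPM in plasma. The row of tRNA-His with the most counts had 8454 and 16149 RPM.

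**Figure D1:**
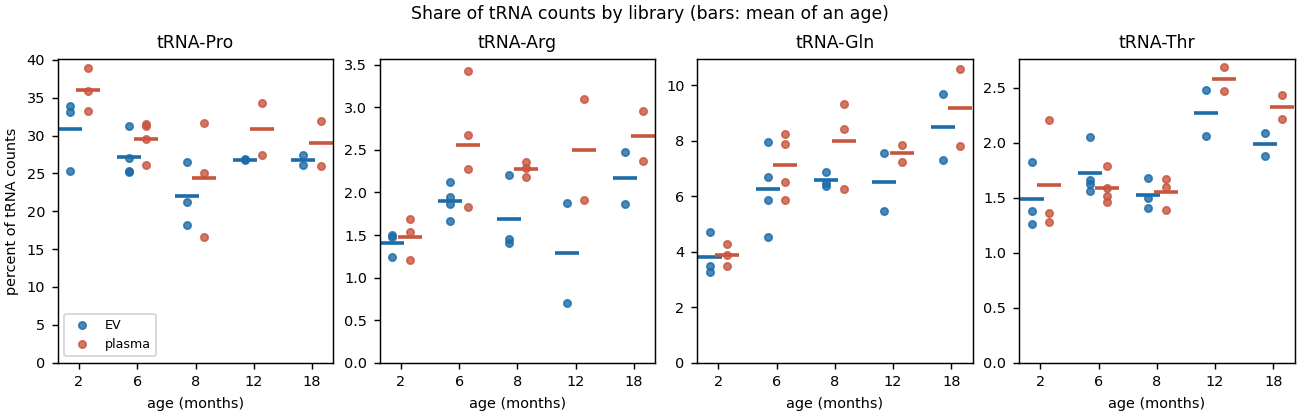
Percent of tRNA counts (y axis, each panel from 0) against age in months (x axis, evenly spaced categories) for the 4 isotypes. Points are libraries, EV in blue and plasma in red, and bars are means of an age. tRNA-Gln stands lowest at 2 months in plasma, where the 3 libraries hold 3.50 to 4.29%, and plasma tRNA-Arg lies above EV tRNA-Arg in the mean of every age.

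Most rows of tRNA-Pro carried nearly the same counts. All copies of tRNA-Pro-AGG, tRNA-Pro-CGG and tRNA-Pro-TGG-2, which are 13 of its 16 rows, held between 99.9 and 101.5% of the count of tRNA-Pro-AGG-1-1 in every library. By total count the 4 copies, the leading rows of the isotype, of tRNA-Pro-TGG-2 began at rank 3 among all 80668 rows, the copies of tRNA-Pro-CGG at rank 7 and those of tRNA-Pro-AGG at rank 10. Accordingly, the ratio of the anticodon sums hardly varied: tRNA-Pro-AGG over tRNA-Pro-CGG lay between 1.99 and 2.00 in every library, which is the ratio of 6 rows to 3, and tRNA-Pro-AGG over tRNA-Pro-TGG lay between 1.38 and 1.43. Differences between these 3 proline anticodons are thus uncertain in these data. The 3 remaining tRNA-Pro-TGG rows did differ. As a median over libraries, tRNA-Pro-TGG-1-1 held 21.9% of the count of tRNA-Pro-AGG-1-1, tRNA-Pro-TGG-4-1 held 1.31% and tRNA-Pro-TGG-3-1 held 0.302%.

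The other isotypes were less uniform. Copies of tRNA-Gln-CTG and tRNA-Gln-TTG, which read the 2 glutamine codons, held a median of 47.2 to 100.0% of the count of the leading row tRNA-Gln-CTG-2-1 in 12 of 16 rows. The 4 others held less, from 19.4% (tRNA-Gln-CTG-1-1) down to 0.145% (tRNA-Gln-TTG-4-1). The ratio of tRNA-Gln-CTG to tRNA-Gln-TTG lay between 3.69 and 4.53 in EVs and between 3.93 and 5.26 in plasma. Threonine was led by tRNA-Thr-AGT, whose ratio to tRNA-Thr-TGT lay between 4.02 and 8.56 in EVs and between 3.68 and 7.62 in plasma. Arginine has 5 anticodons here and varied most. tRNA-Arg-ACG exceeded tRNA-Arg-CCT by a ratio of 2.10 to 24.9 in EVs (median 12.3) and of 13.9 to 67.3 in plasma (median 24.1), and the ratio was higher in the EV library in 0 of 14 mice. Its ratio to tRNA-Arg-TCT was 1.14 to 12.7 in EVs and 8.21 to 18.1 in plasma, higher in the EV library in 1 of 14 mice.

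**Figure D2:**
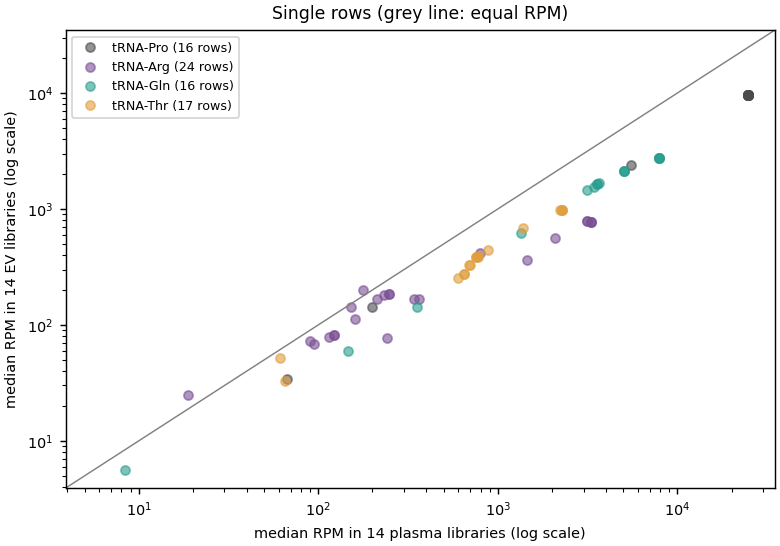
Median RPM of each of the 73 rows in 14 plasma libraries (x axis) and 14 EV libraries (y axis), both on log scales, coloured by isotype. The grey line marks equal RPM. The tRNA-Pro rows with near-equal counts lie on top of each other at the upper right, where tRNA-Pro-TGG-2-1 has medians of 24808 (plasma) and 9621 (EVs). Below the line lie 71 of 73 rows, and the others are tRNA-Arg-TCT-4-1 and tRNA-Arg-TCT-5-1.

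Fragments of all 4 isotypes were less abundant in EVs than in plasma per RPM. tRNA-Pro-AGG held 19112, 57121 and 185255 RPM (lowest, median, highest of 14) in EVs and 55464, 147614 and 269859 RPM in plasma. The fractions overlapped in range, but the EV value was lower in 14 of 14 mice, with a median EV-to-plasma ratio of 0.438. tRNA-Gln-CTG held 11050, 21057 and 94166 RPM in EVs and 19827, 54958 and 193707 RPM in plasma, lower in EVs in 13 of 14 mice (median ratio 0.444). tRNA-Thr-AGT held 2378, 6154 and 30657 RPM in EVs and 4397, 13104 and 43491 RPM in plasma, lower in 12 of 14 mice (0.466). tRNA-Arg-ACG held 1479, 3957 and 20976 RPM in EVs and 5281, 16510 and 47230 RPM in plasma, lower in 14 of 14 mice (0.356). At the other end, tRNA-Arg-CCT had a median ratio of 0.686 and was lower in 12 of 14 mice. By an exact two-sided test of sign changes within mice, 13 of 13 anticodons were lower in RPM, as were 78.4% of all 51 tRNA anticodons (82.4% passed in either direction).

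After TMM normalization over all RNAs, this difference was smaller and did not pass the test when mice were not matched. edgeR's quasi-likelihood test with age as a covariate called 0 of 13 anticodons at an adjusted p under 0.05, whereas 17.3% of all 21967 features were called. At an unadjusted p under 0.05 it called 2 of 13, against 28.6% of all features. DESeq2 called 0 of 13, against 4170 of 21825 features. The median log2 fold change of EV over plasma was -0.48 over the 13 anticodons and -0.015 over all features. The 2 smallest p belonged to arginine: tRNA-Arg-CCG changed by -0.79 ± 0.354 (log2, SE, edgeR adjusted p = 0.13) and tRNA-Arg-ACG by -0.88 ± 0.428 (edgeR adjusted p = 0.172).

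Both fractions come from the same animals, and with the mouse as a block the SE fell and 7 of 13 anticodons were lower in EVs, against 7.29% of all features lower. They were tRNA-Arg-ACG (-1.13 ± 0.253 log2, edgeR adjusted p = 0.00251), tRNA-Arg-CCG (-0.78 ± 0.157, adjusted p = 0.00104), tRNA-Arg-TCG (-0.51 ± 0.142, adjusted p = 0.0144), tRNA-Pro-AGG, tRNA-Pro-CGG and tRNA-Pro-TGG (each -0.57, adjusted p between 0.0335 and 0.04) and tRNA-Thr-TGT (-0.53 ± 0.178, adjusted p = 0.0397). tRNA-Gln-CTG (-0.60 ± 0.221, adjusted p = 0.0639), tRNA-Gln-TTG (-0.51 ± 0.205, adjusted p = 0.0946) and tRNA-Thr-AGT (-0.46 ± 0.188, adjusted p = 0.0989) did not pass. tRNA-Arg-CCT, at 0.07 ± 0.131, was the only anticodon of the 13 with a positive value in either fit. The proline anticodons carry nearly the same counts, so the 7 lower anticodons are not independent results. Of 38 other tRNA anticodons, 6 were higher and 7 lower in EVs with the block. The call depends on the scaling as well. On the RPM scale, which moves the median of all features to -0.45, 9 of 13 anticodons were lower. So were 9 of 38 other tRNA anticodons and 4194 of 21967 features. With TMM over tRNA rows, which moves that median to 0.24, 1 of 13 was called, as lower, against 469 of 21967 features.

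**Figure D3:**
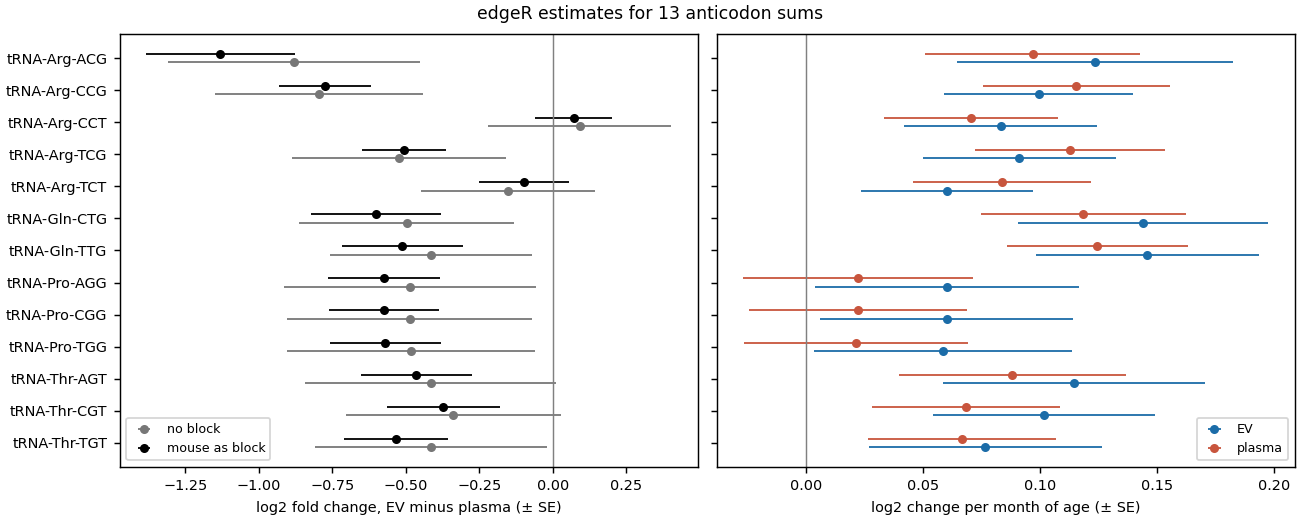
edgeR estimates for the 13 anticodons with their SE. Left, log2 fold change of EV over plasma in 28 libraries without a block (grey) and with the mouse as a block (black), where tRNA-Arg-ACG lies lowest at -0.88 and -1.13. Right, log2 change per month of age in 14 EV libraries (blue) and 14 plasma libraries (red), all 26 of them above 0.

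Next, shares of tRNA counts were compared within mice, which removes the other RNA classes from the comparison. A share can fall only as another rises, so these tests are not independent of each other. Each was an exact two-sided test over all sign changes within mice, and adjusted p-values cover all 51 anticodons or all 23 isotypes. tRNA-Pro was lower in EVs by 3.23 percentage points (SD of the differences 3.02, exact p = 0.00244, adjusted p = 0.00468) and was higher in EVs in 3 of 14 mice. tRNA-Arg was also lower, by 0.571 percentage points (SD 0.460, exact p = 0.000366, adjusted p = 0.00105, higher in EVs in 1 of 14 mice). tRNA-Gln (exact adjusted p = 0.117) and tRNA-Thr (exact adjusted p = 0.384) did not pass. For comparison, 82.6% of isotypes passed, 17.4% as lower in EVs.

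By anticodon, 6 of 13 passed, and 68.6% of all 51 anticodons did. Of these, 5 were lower in EVs, against 19.6% of all anticodons, and 1 was higher, against 49.0%. The proline anticodons among those 5 carry nearly the same counts, so the 5 are not independent results. tRNA-Arg-ACG held 1.00% ± 0.399 of tRNA counts in EVs and 1.58% ± 0.485 in plasma and was lower in EVs in every mouse (exact adjusted p = 0.000889). The ratio of EV to plasma was lowest in 12-month replicate 1, with 0.187% in EVs and 1.22% in plasma, and in 6-month replicate 4, with 0.496% and 1.77%. tRNA-Arg-CCG was lower as well (0.15% against 0.197%, exact adjusted p = 0.0145), as were tRNA-Pro-AGG (12.1% ± 1.86 against 13.6% ± 2.50), tRNA-Pro-CGG (6.05% against 6.79%) and tRNA-Pro-TGG (8.61% against 9.62%), each with an exact adjusted p of 0.00519. In contrast, tRNA-Arg-CCT held 0.0861% ± 0.0198 in EVs and 0.0633% ± 0.0201 in plasma and was higher in EVs in 13 of 14 mice (exact adjusted p = 0.00242), so arginine anticodons moved in both directions. tRNA-Arg-TCT was next, with 0.171% and 0.134% (exact adjusted p = 0.054). The calls need the matching of mice: when the 28 libraries were permuted freely, 2 of 13 passed. The count over all 51 anticodons in that test is not given here. The drop can thus not be called particular to these 13.

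**Figure D4:**
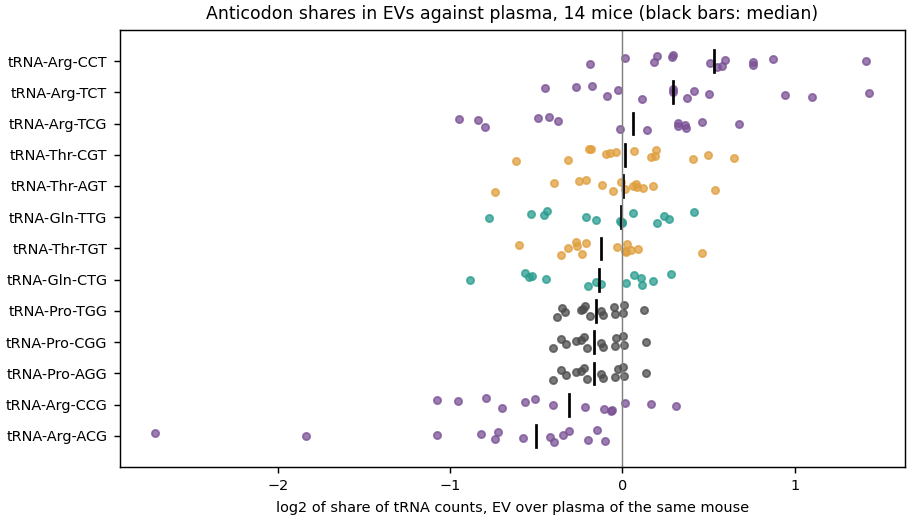
Log2 ratio of the share of tRNA counts in EVs over plasma of the same mouse (x axis) for 13 anticodons (y axis), with 14 mice per anticodon and black bars at the median. All 14 points of tRNA-Arg-ACG lie below 0 (median -0.50, lowest -2.71), and 13 of 14 points of tRNA-Arg-CCT lie above it (median 0.53).

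Among single rows, edgeR without a block called 2 of 73 rows, both lower in EVs, against 17.1% of all rows called and 7.08% lower. The 4 leading rows were not called without the block: tRNA-Pro-TGG-2-1 changed by -0.49 ± 0.404 (log2, edgeR adjusted p = 0.484), tRNA-Gln-CTG-2-1 by -0.53 ± 0.35 (adjusted p = 0.357), tRNA-Thr-AGT-1-1 by -0.45 ± 0.425 (adjusted p = 0.546) and tRNA-Arg-ACG-1-1 by -0.87 ± 0.410 (adjusted p = 0.158). With the mouse as a block, 3 of these 4 were lower in EVs: tRNA-Arg-ACG-1-1 by -1.08 ± 0.226 (log2, edgeR adjusted p = 0.0014), tRNA-Pro-TGG-2-1 by -0.57 ± 0.172 (adjusted p = 0.0214) and tRNA-Gln-CTG-2-1 by -0.64 ± 0.204 (adjusted p = 0.0311), while tRNA-Thr-AGT-1-1 had -0.49 ± 0.174 (adjusted p = 0.0519). In that fit 35 of 73 rows were called against 18.6% of all rows, 34 of them lower, against 7.53% of all rows (14 of tRNA-Pro, 10 of tRNA-Arg, 7 of tRNA-Gln and 3 of tRNA-Thr). The exception was tRNA-Arg-TCT-4-1, higher in EVs by 0.58 ± 0.169 (log2, edgeR adjusted p = 0.0181), with 11.1% of all rows higher. Many rows share reads, so this count is not one of independent RNAs.

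The first called row was tRNA-Pro-TGG-3-1, a weakly counted proline copy. It changed by -1.82 ± 0.516 (log2, edgeR adjusted p = 0.0126) and, with the block, by -0.91 (edgeR adjusted p = 0.0367). In EVs it held 10.1, 34.1 and 111 RPM (lowest, median, highest of 14), and in plasma 28.5, 66.6 and 874 RPM. Plasma was high in 3 libraries: 12-month replicate 2 held 874 RPM, 6-month replicate 3 held 617 RPM and 12-month replicate 1 held 325 RPM, and the next held 134 RPM. The EV libraries of these mice held 52.1, 35.8 and 66.3 RPM. Without 6-month replicate 3 the change was -1.41 and the call was lost (edgeR adjusted p = 0.0624). The rest of tRNA-Pro was not raised in 6-month replicate 3, where plasma tRNA-Pro-AGG held 59313 RPM, second lowest of the 14 plasma libraries. In 12-month replicate 2, by contrast, plasma tRNA-Pro-AGG was second highest of the 14, with 257808 RPM, and 12-month replicate 1 held 204394 RPM.

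**Figure D5:**
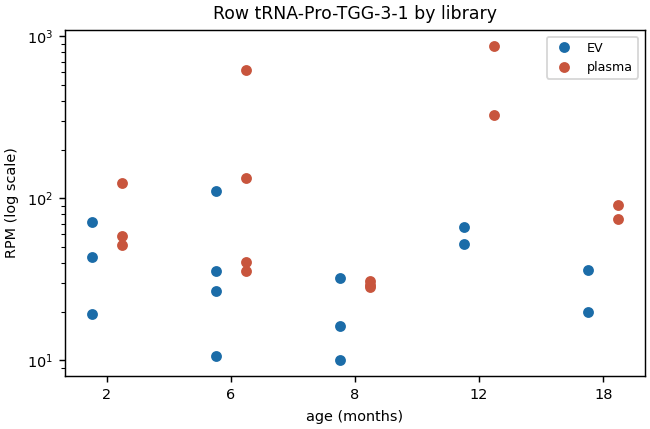
RPM of the row tRNA-Pro-TGG-3-1 on a log scale (y axis) against age in months (x axis, evenly spaced categories), with 1 point per library, EV in blue and plasma in red. The 3 highest plasma libraries, 1 at 6 months and both at 12 months, stand between 325 and 874 RPM, and every other library lies at or below 134 RPM.

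The second was tRNA-Arg-CCG-3-1, which changed by -1.04 ± 0.370 (log2, edgeR adjusted p = 0.0497). It held 164, 364 and 1534 RPM in EVs and 391, 1451 and 5483 RPM in plasma. The call sat at the threshold: it was lost in 12 of 14 fits that left out 1 mouse each, and with the block the change was -1.09 (edgeR adjusted p = 0.000104).

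With age, all 13 anticodons had positive slopes in both fractions, as had 38 of 38 other tRNA anticodons, and none passed the test. In EVs edgeR called 0 of 13 anticodons and 0.0% of all 18214 features. At an unadjusted p under 0.05 it called 5 of 13, against 12 of 38 other tRNA anticodons and 5.28% of all features. DESeq2 called 0 of 13, against 25 of 6111 features. The median slope was 0.09 log2 units per month over the 13 anticodons, 0.08 over 38 other tRNA anticodons and -0.003 over all features. The smallest p were those of glutamine: tRNA-Gln-TTG with 0.15 ± 0.0477 per month (edgeR adjusted p = 0.751) and tRNA-Gln-CTG with 0.14 ± 0.0535 (edgeR adjusted p = 0.813). tRNA-Pro-AGG had 0.06 ± 0.0566, tRNA-Thr-AGT 0.11 ± 0.0559 and tRNA-Arg-ACG 0.12 ± 0.0590 per month (log2).

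In plasma edgeR called 0 of 13 anticodons, against 0.0141% of all 21276 features. At an unadjusted p under 0.05 it called 6 of 13, against 14 of 38 other tRNA anticodons and 7.01% of all features. DESeq2 called 0 of 13, against 46 of 3902 features. The median slope was 0.08 log2 units per month over the 13 anticodons, 0.07 over 38 other tRNA anticodons and 0.006 over all features. tRNA-Gln-TTG again had the smallest p, with 0.12 ± 0.0386 per month (log2, edgeR adjusted p = 0.623), followed by tRNA-Arg-CCG with 0.12 ± 0.0400 (edgeR adjusted p = 0.667). tRNA-Pro-AGG had 0.02 ± 0.0491. With TMM over tRNA rows, the median slope of the 13 anticodons was 0.0048 in EVs and 0.0061 in plasma, and 8 and 9 of 13 slopes were positive. The slopes also moved with the ages included. Without the 2-month mice the median slope was 0.19 in EVs and 0.18 in plasma, with 13 of 13 anticodons at an unadjusted p under 0.05 in each (1728 of 18214 and 1198 of 21276 features in all), and without the 18-month mice it was 0.06 and 0.07, with 0 of 13. The 38 other tRNA anticodons had median slopes of 0.17 and 0.15 without the 2-month mice, and 0.07 and 0.06 without the 18-month mice. edgeR called 0 of 13 after adjustment in all 4 fits. Slopes were not shown to differ between fractions. edgeR called 0 of 13 anticodons for the interaction of age and fraction, also at an unadjusted p under 0.05, against 0.0% and 4.07% of all features. DESeq2 called 0 of 13 too, against 2 of 21841 features. The fit with the mouse as a block called 0 of 13, against 0 of 21967 features.

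Single rows gave the same count. edgeR called 0 of 73 rows in EVs (37 at an unadjusted p under 0.05, against 5.8% of all rows), against 0.0% called. In plasma it called 0 of 73 (31 unadjusted, against 7.29%), against 0.0139%. DESeq2 called 0 in both, against 18 of 5857 rows in EVs and 41 of 6879 in plasma. Glutamine rows made up 15 of those 37 and 14 of those 31, out of 16. tRNA-Gln-CTG-2-1 had slopes of 0.14 ± 0.0501 in EVs and 0.12 ± 0.0392 in plasma (log2 per month, edgeR adjusted p = 0.685 and 0.619). tRNA-Pro-TGG-2-1 had 0.06 ± 0.0519 and 0.02 ± 0.0445, and 0 of 16 proline rows passed even without adjustment in either fraction.

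As a share of tRNA counts, tRNA-Gln was lowest in the youngest mice. At 2 months it held 3.48, 4.69 and 3.27% in EVs and 3.89, 4.29 and 3.50% in plasma. At 6 months it held 7.95, 5.85, 6.70 and 4.52% in EVs and 7.88, 6.50, 5.85 and 8.23% in plasma. At 8 months it held 6.37, 6.87 and 6.46% in EVs and 8.43, 6.26 and 9.31% in plasma. At 12 months the values were 5.46 and 7.57% in EVs and 7.86 and 7.23% in plasma, and at 18 months 9.68 and 7.29% in EVs and 7.81 and 10.6% in plasma. In plasma the 2-month libraries did not overlap with any other age, and in EVs they overlapped with 6 months only. From 6 to 12 months the ages overlapped in both fractions.

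The correlation of these shares with age did not pass after adjustment over both fractions. For tRNA-Gln, Spearman's rho was 0.697 in EVs (n = 14, permutation p = 0.00726, adjusted p = 0.0857) and 0.656 in plasma (n = 14, permutation p = 0.0128, adjusted p = 0.0857). Pearson's r was 0.754 and 0.737 (n = 14, permutation adjusted p = 0.0412 for both). Without the 2 mice aged 18 months, whose age is farthest from the median, r was 0.652 in EVs and 0.727 in plasma, and without the 2-month mice rho was 0.406 and 0.288. Of the 13 anticodons 0 passed in EVs and 0 in plasma by the permutation test of rho, as did 0.0% of all 51. At an unadjusted p under 0.05, 3 passed in EVs and 5 in plasma, against 15.7 and 25.5% of all 51. The highest rho was that of tRNA-Gln-TTG in both fractions, 0.742 in EVs and 0.688 in plasma (n = 14, permutation adjusted p = 0.141 for both). Its Pearson's r was 0.826 in EVs (permutation adjusted p = 0.0184) and 0.779 in plasma (permutation adjusted p = 0.0401). Without the 18-month mice r was 0.668 and 0.739 (permutation adjusted p = 0.15 and 0.13), so the call by r was lost without them. As a share of all counts in plasma, tRNA-Gln-CTG and tRNA-Gln-TTG passed, with rho of 0.856 and 0.832 (n = 14, permutation adjusted p = 0.0163 for both). In EVs they did not (rho 0.564 and 0.546). A share of all counts also moves with the tRNA rows as a whole. These took a mean of 63.4% of plasma counts at 2 months, 49.7% at 8 months and 77.2% at 18 months.

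tRNA-Thr had its highest mean at 12 months, with values that overlapped those at 18 months in EVs. Its share was 2.06 and 2.48% in EVs and 2.47 and 2.69% in plasma at that age, against 1.26 to 1.82% and 1.28 to 2.20% at 2 months. Over all ages rho was 0.632 in EVs (n = 14, permutation adjusted p = 0.101) and 0.690 in plasma (n = 14, permutation adjusted p = 0.0857), with r of 0.60 and 0.676. Without the 18-month mice r was 0.636 and 0.602. tRNA-Arg had rho of 0.254 in EVs and 0.60 in plasma (n = 14, permutation adjusted p = 0.576 and 0.131), with r of 0.320 and 0.515, and r of -0.0619 and 0.531 without the 18-month mice. tRNA-Pro was the only isotype of the 4 with a negative rho, -0.220 in EVs and -0.427 in plasma (n = 14, permutation adjusted p = 0.619 and 0.332), with r of -0.266 and -0.315, and r of -0.451 and -0.436 without the 18-month mice. Its mean share in plasma was 36.0% ± 2.85 (SD, n = 3) in the 2-month mice and then, by age, 29.6% ± 2.51 (n = 4), 24.4% ± 7.53 (n = 3), 30.9% ± 4.86 (n = 2) and 29.0% ± 4.19 (n = 2) in the 6-, 8-, 12- and 18-month mice. In EVs these means were 30.8% ± 4.75, 27.2% ± 2.88, 22.0% ± 4.17, 26.8% ± 0.0539 and 26.8% ± 0.890. The lowest mean was thus that at 8 months in both fractions, not that of the oldest mice. Among anticodons the lowest rho was that of tRNA-Pro-TGG in plasma, -0.479 (n = 14, permutation adjusted p = 0.309), and that of tRNA-Pro-AGG and tRNA-Pro-CGG in EVs, -0.220 (n = 14, permutation adjusted p = 0.611). Without the 2-month mice, rho of tRNA-Pro was 0.0991 in EVs and 0.104 in plasma. The isotypes of 1 library share its depth and its other tRNA counts. Marker microRNAs were not tested between the youngest and the oldest mice, and their ranges separated in some lists. The 3 skeletal muscle markers summed to 0.996 to 4.35 RPM at 2 months and 6.57 to 7.62 RPM at 18 months in EVs, and to 1.42 to 2.39 RPM and 4.84 to 5.79 RPM in plasma. The 3 liver markers summed to 40.1 to 83.9 RPM and 126 to 179 RPM in EVs, and to 26.6 to 118 RPM and 84.6 to 177 RPM, which overlap, in plasma. The 3 platelet markers summed to 167 to 570 RPM and 457 to 629 RPM, which overlap, in EVs, and to 111 to 298 RPM and 401 to 477 RPM in plasma, and the 5 red cell markers overlapped between these ages in both fractions. The part of depth and of these cells in the results was not tested.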

How the data were processed

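Small RNA was sequenced from EVs and EV-depleted plasma of 14 mice. The authors deposited unnormalized estimated counts for each RNA. They also deposited an RPM signal, in which a count is divided by 1 number per library. Submitters' notes name mm10 and R 4.0.4. Aligner and annotation: not given in the sources used here. Groups, ages and mice were taken from the labels. Pairing rests on the animal: deviations of the 2 fractions of a mouse from their age means correlated between -0.118 and 0.533 over 14655 rows.

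tRNA rows were summed by anticodon in the whole table. Counts were rounded, RNAs with at least 1 RPM in at least 2 of 14 libraries of a fraction kept, and tested with edgeR 4.0.16 (TMM, glmQLFit and glmQLFTest, run in R 4.3.3 with limma 3.58.1), Benjamini-Hochberg adjustment over all features and a threshold of 0.05, fraction with age as a covariate or age within a fraction. DESeq2 1.42.0 was the other tool. Shares were tested by exact sign changes within mice and, against age, by 100000 permutations, adjusted over all anticodons (102 tests) or isotypes (46 tests) of both fractions. Scripts were tested on simulated data. The plasma library with 928651 counts is the least precise. Replicates of the same age differed by more than counting noise.

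The rule names every anticodon, the leading anticodon and row of each isotype, up to 3 largest called changes per direction or the 2 smallest p, and the highest and lowest rho. The members and lists were chosen with earlier results of these data known. Gene positions come from RefSeq GRCm38.p6. Alternatives were other scalings, filters, tools, age codings, denominators, counting of identical rows, and left-out mice.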

Additional observations from a re-analysis of the deposited data

How the results depend on the processing

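The mouse block, where EV and plasma libraries pair by animal, called 7 of 13 anticodons and 35 of 73 rows for EV against plasma (0 and 2 without it), and for shares 6 passed with the pairing and 2 without. For EV against plasma, RPM scaling called 9 anticodons and 46 rows, TMM over tRNA rows 1 and 9, and DESeq2 size factors 1 row. In the whole table, RPM scaling gave 4194 of 21967 features and 4349 of 22323 rows as lower, and TMM over tRNA rows 469 and 530. In fits without the block, leaving out the mice of the shared plasma code called 1 row, and leaving out each mouse gave 0 to 2 rows, 0 without 6-month replicate 3. The edgeR fit with the mouse as a block was not repeated without these mice. With the filter off, 2 of 73 rows were called for age in plasma, against 10 of 335 other tRNA rows and 565 of 65868 rows in all. As a share of all counts or in RPM, 13 anticodons were lower in EVs, tRNA-Arg-CCT included (-0.012 percentage points and -204 RPM). For age, shares of all counts called 2 anticodons in plasma, Pearson's r called 1 in each fraction, and leaving out 2-month replicate 1 called 1 in plasma (0 to 1 over mice left out).

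Age slopes were steeper without the 2-month mice (median 0.19 in EVs and 0.18 in plasma, against 0.09 and 0.08), and some near 0 turned negative in other settings, with the cause not tested. For tRNA-Pro-AGG, TMM over tRNA rows gave -0.017 in EVs and -0.041 in plasma, log2 of age -0.051 and leaving out the 18-month mice -0.028. For row tRNA-Pro-TGG-2-1 these were -0.014, -0.038, -0.057 and -0.041, and -0.012 to 0.047 in plasma over mice left out (-0.012 without 18-month replicate 2). The interaction of tRNA-Thr-AGT lay between -0.011 and 0.067 over mice left out. Spearman's rank correlation of tRNA-Pro-AGG with age became 0.252 (share of all counts), 0.153 (RPM) and 0.0991 (without the 2-month mice) in EVs and 0.0472, 0.166 and 0.104 in plasma. In plasma the rank correlation of tRNA-Pro-TGG was 0.166 in RPM, and that of tRNA-Arg-ACG -0.0991 without the 2-month mice. Of 506 values of single anticodons or rows under alternatives other than a left-out mouse, 460 kept direction and call, 23 gained a call, 5 lost one and 18 reversed. The settings without the 18-month or the 2-month mice and with leading rows only were chosen after seeing the data. Ages with 2 mice limit every age comparison.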
